A study of Mus musculus with 20 samples.

Results

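The genes described here are the 9 enzymes and regulators of polyamine metabolism named Odc1, Oaz1, Azin1, Amd1, Srm, Sms, Sat1, Smox and Paox. They were chosen by name, and each matched 1 row among the 46078 genes of a table of RNA-seq counts from mouse liver. The series asked how removal of cysteine from the diet acts in mice that cannot make it from methionine. Cse (Cth) encodes cystathionine gamma-lyase, the last enzyme of cysteine synthesis. Livers of 20 male mice, at least 9 weeks old when the diets began and on a 129/C57BL/6 background, fell into 6 groups. Cse+/- mice, which carry 1 deleted allele and served as controls, were given the control diet (n = 2), a diet without cysteine (no-Cys; n = 4) or one without tryptophan (no-Trp; n = 3). Cse-/- mice were given no-Cys food (n = 4), no-Trp food (n = 3) or no-Trp food with L-buthionine sulfoximine (no-Trp + BSO; n = 4), an inhibitor of glutathione synthesis. All mice were first calorie restricted on the control diet, the restriction went on with the test diets, and livers were taken 2 days after the shift. The deletion is in the whole body, no Cse-/- liver on the control diet was analysed here, and the sample labels call the Cse+/- mice WT while the list of mice calls them Het. Each value comes from a separate mouse.

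In GRCm38 the members lie on chr12:17544794-17551505 (Odc1, ENSMUSG00000011179, plus strand), chr10:80826656-80829290 (Oaz1, ENSMUSG00000035242, plus), chr15:38487427-38519266 (Azin1, ENSMUSG00000037458, minus) and chr10:40287458-40302186 (Amd1, ENSMUSG00000075232, minus). Srm (ENSMUSG00000006442) is at chr4:148591503-148594993 on the plus strand. Sms (ENSMUSG00000071708) and Sat1 (ENSMUSG00000025283) share the X chromosome, at chrX:157443855-157492287 and chrX:155213132-155216449 on the minus strand. Smox (ENSMUSG00000027333) is at chr2:131491496-131525922 and Paox (ENSMUSG00000025464) at chr7:140115799-140137224, both on the plus strand. All 9 are protein coding.

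Polyamines are small positively charged molecules that bind nucleic acids and are needed for growth and translation. Ornithine decarboxylase (Odc1) makes putrescine from ornithine. Antizyme (Oaz1) binds the decarboxylase and directs it to the proteasome, and antizyme inhibitor (Azin1) is a homolog of the decarboxylase without its activity that binds antizyme in turn. S-adenosylmethionine decarboxylase (Amd1) supplies the aminopropyl groups with which spermidine synthase (Srm) and spermine synthase (Sms) build spermidine and spermine. In the other direction, spermidine/spermine N1-acetyltransferase (Sat1) acetylates the higher polyamines, polyamine oxidase (Paox) splits the acetylated forms and spermine oxidase (Smox) converts spermine back to spermidine. Much of this control acts on translation and on protein turnover, which mRNA counts do not show.

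The stretches before the RefSeq start sites of the members that passed the test between genotypes on the no-Cys diet are printed first, since 3 of them were higher together and 2 were lower together. They come from RefSeq windows of GRCm38.p6, of which 9 matched 7 members, Srm and Azin1 having none. Only bases before the start and outside annotated exons are given, 5′ to 3′ on the gene's strand, and for Paox the first of its windows. Capitals mark a match to a searched motif.
Odc1, higher, chr12:17544623-17544793, plus strand: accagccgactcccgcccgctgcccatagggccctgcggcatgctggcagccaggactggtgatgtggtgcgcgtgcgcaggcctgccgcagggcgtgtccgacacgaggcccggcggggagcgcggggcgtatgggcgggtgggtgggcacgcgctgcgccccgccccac
Sat1, higher, chrX:155216450-155216699, minus strand: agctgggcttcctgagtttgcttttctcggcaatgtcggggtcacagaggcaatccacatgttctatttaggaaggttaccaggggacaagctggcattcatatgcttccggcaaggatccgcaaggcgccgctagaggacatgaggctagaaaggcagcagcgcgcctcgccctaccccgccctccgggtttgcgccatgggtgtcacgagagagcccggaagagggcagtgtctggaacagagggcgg
Smox, higher, chr2:131491654-131491763, plus strand: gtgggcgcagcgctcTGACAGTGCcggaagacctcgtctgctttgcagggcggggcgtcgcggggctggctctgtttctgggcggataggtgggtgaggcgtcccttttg
Oaz1, lower, chr10:80826406-80826655, plus strand: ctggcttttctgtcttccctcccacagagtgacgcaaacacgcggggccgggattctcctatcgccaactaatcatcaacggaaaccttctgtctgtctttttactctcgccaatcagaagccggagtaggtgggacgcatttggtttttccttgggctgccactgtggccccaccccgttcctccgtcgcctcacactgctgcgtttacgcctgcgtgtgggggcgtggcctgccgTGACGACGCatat
Paox, lower, chr7:140125407-140125656, plus strand: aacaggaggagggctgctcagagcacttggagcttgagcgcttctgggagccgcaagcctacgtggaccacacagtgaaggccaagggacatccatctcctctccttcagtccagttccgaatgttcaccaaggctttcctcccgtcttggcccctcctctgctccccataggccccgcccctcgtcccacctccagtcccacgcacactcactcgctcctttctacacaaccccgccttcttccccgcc

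Each full window of 250 bases before the start was searched on both strands for 3 motifs. TGATGNAA (the C/EBP-ATF element) was in no member's window, against 3.45% of the 32851 mouse windows. TGACNNNGC (the antioxidant response element), which 10.2% of all windows hold, matched in Smox, 193 to 185 bases before the start, and in Oaz1, 13 to 5 bases before it. These 2 members differed in opposite directions. CACGTG (the E-box), found in 6.02% of all windows, matched in 1 window of Sms only, on both strands at once since it reads the same on each. No matches of different motifs overlapped. A match describes these letters and not a bound factor, and the windows of Odc1, Sat1, Paox and Amd1 held none of the 3 motifs.

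Counts on genes ran from 11785740 to 57986121 a library, so that each member had between 35 (Sms) and 16952 (Oaz1) counts in every liver. Values are given as CPM (counts scaled to library size) and, between genes, as CPM per kilobase of exon. The labels and the deleted gene matched: Cth was at 88.4 to 332 CPM in the 9 Cse+/- livers and at 6.37 to 14.4 CPM in the 11 Cse-/- livers. Summed CPM of 6 hepatocyte genes lay at 84272 to 108324 in Cse+/- and at 40114 to 66597 in Cse-/- livers on the no-Cys diet, where 4 of the 6 were lower and 1 higher. All 5 red cell genes were lower there as well, at 69.1 to 114 against 201 to 406 summed CPM. The 3 endothelial genes summed to 83.0 to 103 against 97.8 to 117 and the 6 Kupffer and immune cell genes to 92.2 to 120 against 112 to 142, with 0 and 1 of them lower. The 3 stellate cell genes, 1 of them lower, summed to 46.7 to 62.4 against 57.0 to 84.0, and the 2 cholangiocyte genes, neither called, to 1.42 to 2.58 against 2.72 to 4.87. The 3 genes of dividing cells summed to at most 1.71 CPM in any liver, those of adipocytes to at most 3.70 CPM with Lep at 0 counts, and the pancreatic Cpa1, Ctrb1 and Pnlip reached at most 0.353 CPM. The fourth pancreatic gene, Cela1, was at 8.56 to 23.8 CPM, and the 4 summed to 10.7 to 13.3 in Cse-/- and 8.56 to 24.4 in Cse+/- livers on the no-Cys diet, with none called. On the no-Trp diet the same sums were 73220 to 84149 in Cse+/- and 63152 to 69711 in Cse-/- livers for the hepatocyte genes and 211 to 258 against 119 to 184 for the red cell genes, and with BSO the red cell genes summed to 68.3 to 166. Alb alone was at 25507 to 87978 CPM across all livers, so the hepatocyte sums follow this gene most. The part of these shifts in the results below was not tested. In bulk liver fewer cells of a type, less RNA per cell and lower expression of the listed genes in the same cells cannot be told apart.

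Per kilobase, Oaz1 was the highest member in all 6 groups, with group means of 91.4 to 117. Odc1 (15.1 to 34.5), Srm (23.6 to 32.2), Sat1 (22.7 to 32.7) and Azin1 (17.1 to 22.5) formed a middle tier. Amd1 (4.60 to 8.30) and Paox (2.38 to 3.62) were lower, and Smox (0.896 to 1.28) and Sms (0.459 to 0.698) were the lowest. The exon lengths include bases shared with other genes. For Amd1, 75.6% of stretches of 61 bases were shared, so its place in this order is less certain. Spread over the 6 group means on the log2 CPM scale was widest for Odc1 (1.22) and Amd1 (0.85) and narrowest for Oaz1 (0.36). Odc1 ran from Cse-/- no-Cys (118 ± 22.9 CPM) through Cse-/- no-Trp (90.6 ± 28.5), Cse+/- no-Trp (84.4 ± 7.07), control (80.1 ± 23.2) and no-Trp + BSO (67.3 ± 8.37) to Cse+/- no-Cys (51.5 ± 16.4). Amd1 ran from no-Trp + BSO (29.4 ± 3.06 CPM) through Cse+/- no-Cys (24.8 ± 2.81), Cse-/- no-Cys (20.6 ± 4.41), Cse+/- no-Trp (20.6 ± 4.83) and Cse-/- no-Trp (17.5 ± 3.49) to control (16.3 ± 2.26). In both orders the ranges of neighbouring groups overlapped. The 2 genes were extreme in different groups, Odc1 in Cse-/- no-Cys and Amd1 in no-Trp + BSO.

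**Figure D1:**
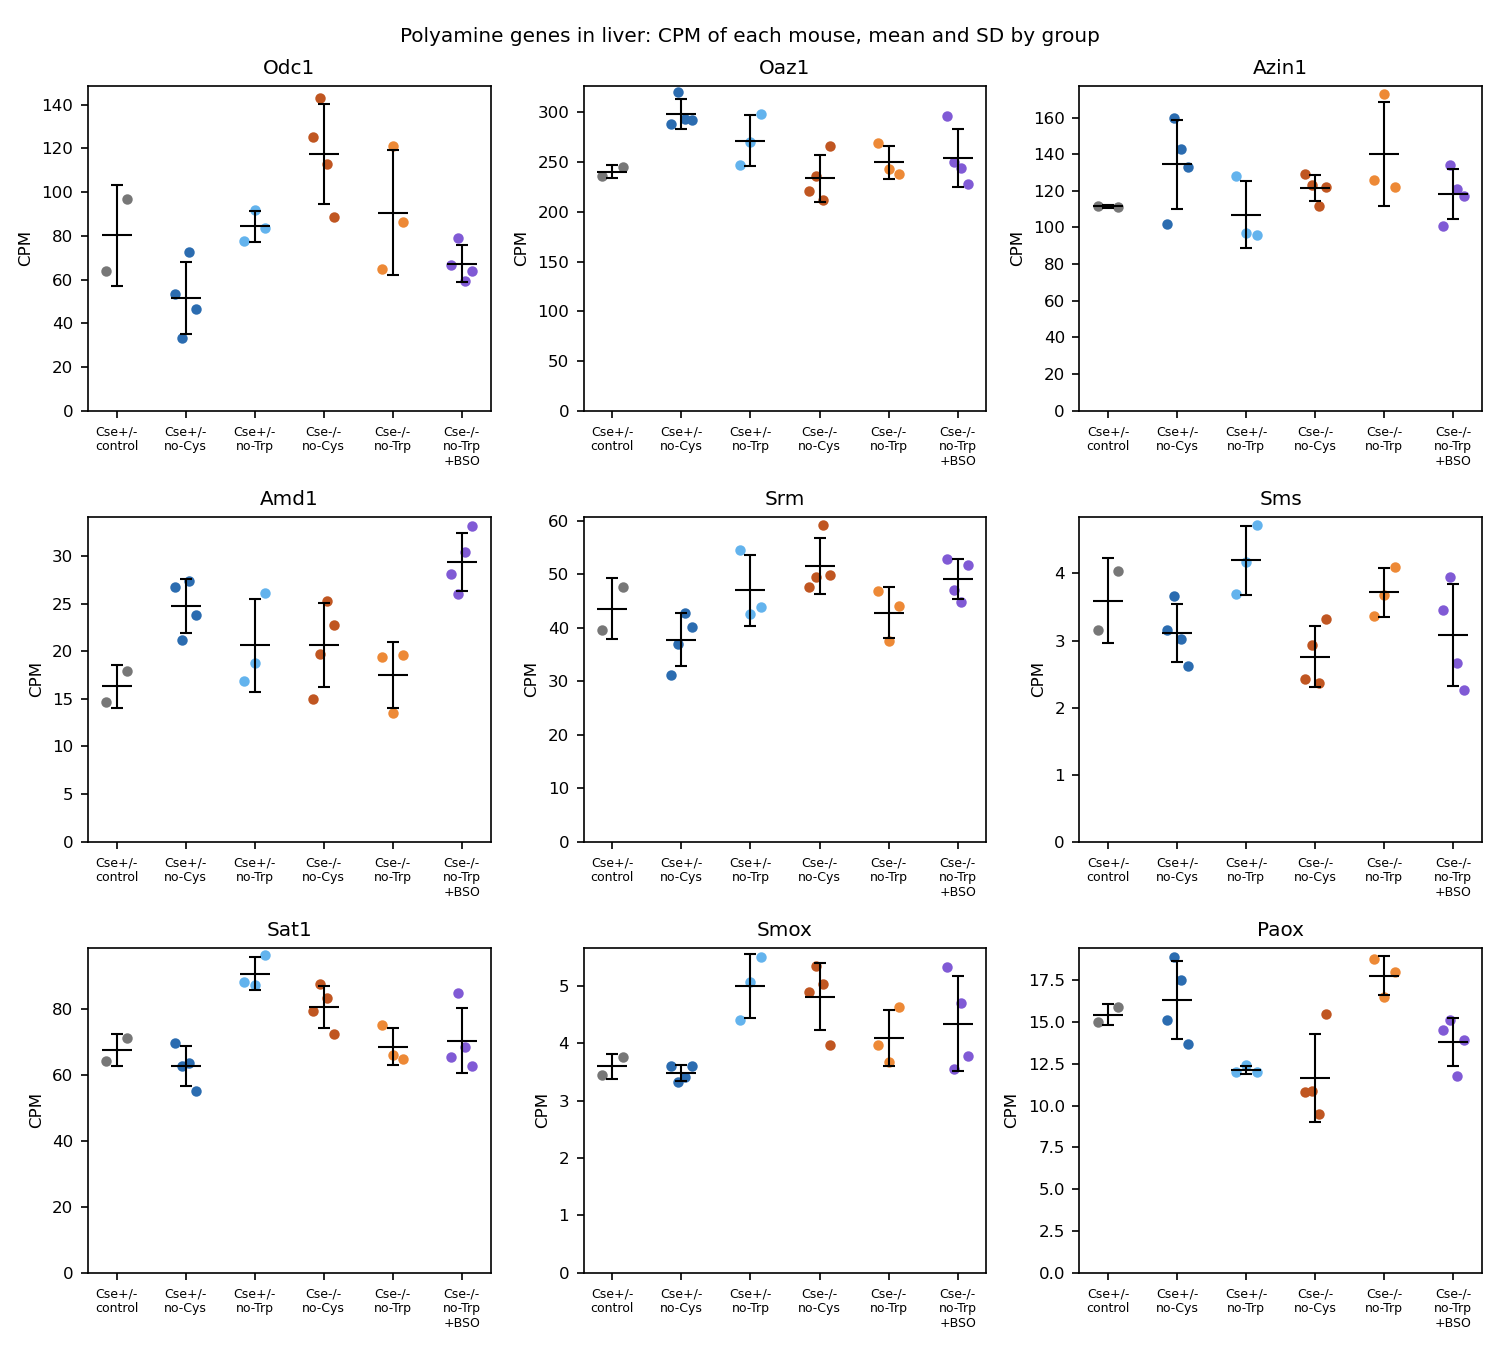
CPM of each member (y axis, linear, from 0) in each of the 6 groups; points are mice, the horizontal line is the group mean and bars are the SD. Odc1 is highest in Cse-/- livers on the no-Cys diet (88.5 to 143 CPM) and lowest in Cse+/- livers on the same diet (33.4 to 72.8 CPM).

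The first comparison asked how Cse-/- and Cse+/- livers differed when both lacked dietary cysteine. Odc1, Srm, Sat1 and Smox were higher in Cse-/- livers, and Oaz1 and Paox were lower. Thus the enzyme that starts the pathway and spermidine synthase were higher together with the acetyltransferase and the spermine oxidase, while the antizyme that removes the decarboxylase and the oxidase of acetylated polyamines were lower. In edgeR's quasi-likelihood test with Benjamini-Hochberg adjustment over all 14759 genes, 4 of the 9 members passed an adjusted p of 0.05 as higher and 2 as lower. The background was broad, as 11.6% of all genes tested were called higher and 12.2% lower. The median log2 fold change was -0.15 over the members and -0.01 over all genes. The remaining 3 members, Azin1, Amd1 and Sms, were not called.

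Odc1 measured 125, 143, 113 and 88.5 CPM in the 4 Cse-/- livers on the no-Cys diet and 53.4, 33.4, 72.8 and 46.4 CPM in the 4 Cse+/- livers. The groups did not overlap, and the lowest Cse-/- liver exceeded the highest Cse+/- liver. Mean levels were 118 ± 22.9 and 51.5 ± 16.4 CPM (SD, n = 4 each), a fitted 2.29-fold difference (log2 1.19, SE 0.21, adjusted p = 0.000539 by edgeR). The 2 Cse+/- livers on the control diet were at 63.7 CPM, inside the Cse+/- no-Cys range, and at 96.6 CPM, inside the Cse-/- no-Cys range. With each of the 8 livers left out in turn the log2 value stayed between 1.03 and 1.41.

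Oaz1 measured 221, 236, 212 and 266 CPM in Cse-/- livers against 288, 321, 293 and 292 CPM in Cse+/- livers on the no-Cys diet. The 2 ranges did not overlap, and 3 of the 4 Cse+/- livers lay at 288 to 293 CPM. The log2 fold change was -0.35 (SE 0.10, adjusted p = 0.0112 by edgeR), a level in Cse-/- of 0.78 times that in Cse+/-. Without the Cse-/- mouse av07, the lowest, it was -0.29 and the adjusted p was 0.0565. The decarboxylase and its antizyme thus differed in opposite directions. Per kilobase, Odc1 mRNA was at 0.383 ± 0.0913 of Oaz1 mRNA in Cse-/- livers on the no-Cys diet and at 0.131 ± 0.0451 in Cse+/- livers on that diet (SD, n = 4 each). The ratio ran from 0.250 to 0.455 and from 0.0781 to 0.187, and in the other 4 groups its mean was 0.200 to 0.276. It is a description of the same counts and was given no test.

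Azin1, which counters antizyme, measured 129, 123, 112 and 122 CPM in Cse-/- livers and 102, 160, 143 and 133 CPM in Cse+/- livers. The Cse-/- values fell inside the Cse+/- range. The log2 difference was -0.15 with an SE of 0.14 (adjusted p = 0.45, edgeR).

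Among the synthases, Srm measured 47.6, 49.4, 59.3 and 49.9 CPM in Cse-/- livers against 31.2, 36.9, 42.8 and 40.2 CPM in Cse+/- livers on the no-Cys diet. Every Cse-/- liver was above every Cse+/- liver. The difference was 1.36-fold (log2 0.45, SE 0.11, adjusted p = 0.00739, edgeR) and was called in each fit that left out a liver. Sms, the next enzyme, was at only 2.36 to 3.32 against 2.62 to 3.67 CPM, with a log2 difference of -0.18 (SE 0.19, adjusted p = 0.527, edgeR). Amd1 measured 15, 19.7, 25.3 and 22.7 against 26.7, 21.2, 27.4 and 23.8 CPM, and the groups overlapped (log2 -0.26, SE 0.16, adjusted p = 0.258, edgeR). Spermidine synthase was thus the only one of these 3 biosynthetic enzymes past the threshold, although the differences between the 3 were not tested.

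The acetyltransferase Sat1, the entry to polyamine breakdown, measured 79.4, 87.5, 83.5 and 72.5 CPM in Cse-/- livers and 69.8, 62.7, 63.8 and 55.1 CPM in Cse+/- livers. The groups did not overlap, though their nearest livers were close. The log2 fold change was 0.36 (SE 0.10, adjusted p = 0.0121, edgeR). Smox, the spermine oxidase, measured 4.90, 5.35, 5.03 and 3.98 against 3.60, 3.32, 3.42 and 3.61 CPM. Its groups did not overlap either, but the gene is lowly expressed and its call (log2 0.47, SE 0.16, adjusted p = 0.0365, edgeR) held in only 1 of the 8 fits that left out a liver, with adjusted p of 0.0200 to 0.0983. DESeq2 gave Smox an adjusted p of 0.0549.

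Paox, which oxidises the acetylated products of Sat1, went the other way, at 10.8, 10.9, 9.49 and 15.5 CPM in Cse-/- against 15.1, 18.9, 17.5 and 13.7 CPM in Cse+/- livers. The groups overlapped through a single Cse-/- liver, mouse av08. The log2 fold change was -0.49 (SE 0.13, adjusted p = 0.0124, edgeR), and -0.65 without that mouse. The call was lost without the Cse-/- mouse av07 (adjusted p = 0.0598) or the Cse+/- mouse av02 (adjusted p = 0.0527), and when only the 2 groups entered the fit (adjusted p = 0.0511). Mouse av08 was also the Cse-/- liver nearest the Cse+/- group for Odc1, Oaz1, Sat1 and Smox, that is for 5 of the 6 called members, and the remaining one, Srm, was nearest in mouse av05. All 6 members were called without av08.

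**Figure D2:**
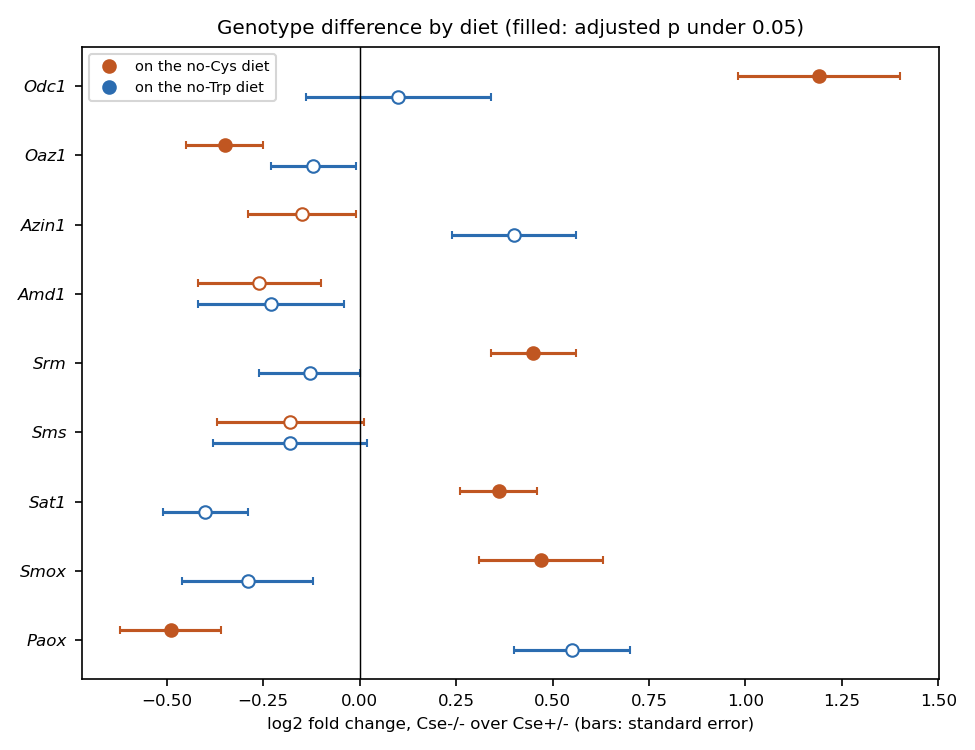
log2 fold change of Cse-/- over Cse+/- livers (x axis) for each member (y axis) on the no-Cys diet (orange) and on the no-Trp diet (blue); bars are standard errors and filled points have an adjusted p under 0.05. Azin1, Srm, Sat1, Smox and Paox lie on opposite sides of 0 on the 2 diets.

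The no-Trp diet, which lacks an essential amino acid, served to ask whether these genotype differences arose with any such diet. In edgeR's test 0 of the 9 members were called between Cse-/- and Cse+/- livers on the no-Trp diet, where 2.64% of all genes were called in either direction. Without adjustment 3 members had p under 0.05, against 18.4% of all genes, and DESeq2 called 2, Sat1 and Paox. Odc1 measured 64.6, 121 and 86.3 CPM in Cse-/- and 77.7, 91.8 and 83.7 CPM in Cse+/- livers. The Cse+/- range lay inside that of Cse-/- (log2 0.10, SE 0.24, adjusted p = 0.865, edgeR). Sat1 measured 75.1, 66.0 and 64.9 CPM in Cse-/- against 88.4, 87.4 and 96.5 CPM in Cse+/- livers, and Paox 18.8, 16.5 and 18.0 against 12.0, 12.4 and 12.0 CPM. Neither pair of groups overlapped, and both differences were opposite in sign to those on the no-Cys diet (log2 -0.40, SE 0.11, adjusted p = 0.0626 for Sat1; log2 0.55, SE 0.15, adjusted p = 0.0526 for Paox; edgeR). Azin1 was the third with an unadjusted p under 0.05, at 126, 173 and 122 against 128, 96.8 and 95.8 CPM (log2 0.40, SE 0.16, adjusted p = 0.180, edgeR).

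The difference between the genotype effects on the 2 diets was then tested directly, as an interaction over the 14 livers of these 4 groups. It was called for 2 of the 9 members, Sat1 and Paox, against 4.36% of all genes. For Sat1, the genotype difference on the no-Cys diet exceeded that on the no-Trp diet by 0.77 on the log2 scale (SE 0.15, adjusted p = 0.00706, edgeR). For Paox it was -1.04 (SE 0.20, adjusted p = 0.00618, edgeR). Both calls held in all 14 fits that left out a liver and under each other setting tried. The order of the group means of Sat1 ran from Cse+/- no-Trp (90.8 CPM) and Cse-/- no-Cys (80.7) through no-Trp + BSO (70.4), Cse-/- no-Trp (68.6) and control (67.6) to Cse+/- no-Cys (62.8), and the ranges of neighbours in this order overlapped, the first pair only at 87.4 to 87.5 CPM. Paox ran from Cse-/- no-Trp (17.8 CPM), Cse+/- no-Cys (16.3) and control (15.5) through no-Trp + BSO (13.8) to Cse+/- no-Trp (12.1) and Cse-/- no-Cys (11.7), and the ranges of each neighbouring pair overlapped. The 2 groups with the highest mean of the acetyltransferase were thus those with the lowest mean of the oxidase that follows it. Over the 20 livers the Pearson r on log2 CPM was -0.57 between Sat1 and Paox, 0.61 between Sat1 and Smox and -0.68 between Smox and Paox, as a description of livers that share 6 groups.

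For Odc1, Srm and Smox the interaction was positive but not called, at log2 1.09 (SE 0.32, adjusted p = 0.0568), 0.58 (SE 0.17, adjusted p = 0.0614) and 0.75 (SE 0.23, adjusted p = 0.0661) by edgeR. DESeq2 called Odc1 and Srm (adjusted p = 0.0166 and 0.0306) and not Smox (0.0644). For Oaz1 it was -0.23 (SE 0.15) and for Azin1 -0.55 (SE 0.21, adjusted p = 0.144, edgeR). Amd1 and Sms gave interactions within 1 standard error of 0.

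Among Cse-/- livers, the no-Cys and no-Trp diets differed in 1 member, Paox, which was lower on the no-Cys diet, while 5.05% of all genes were called higher and 5.35% lower. Its values, 10.8, 10.9, 9.49 and 15.5 against 18.8, 16.5 and 18.0 CPM, did not overlap (log2 -0.61, SE 0.14, adjusted p = 0.0101, edgeR). The call was lost when only these 2 groups entered the fit (adjusted p = 0.0638). Odc1 was at 88.5 to 143 against 64.6 to 121 CPM, and these ranges overlapped (log2 0.38, SE 0.23, adjusted p = 0.304, edgeR). Srm and Sms had ranges that did not overlap, with log2 differences of 0.27 (SE 0.12) and -0.44 (SE 0.20), and neither was called (adjusted p = 0.170 and 0.167, edgeR). This contrast shares its Cse-/- no-Cys livers with the first one.

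BSO, which blocks glutathione synthesis, was added to the no-Trp diet to set its effect beside that of cysteine removal. Between Cse-/- livers on no-Trp + BSO and on no-Trp alone, 0 members were called by edgeR, where 0.793% of all genes were; 2 members had an unadjusted p under 0.05, against 13% of all genes, and DESeq2 called 1, Amd1. Amd1, which supplies aminopropyl groups, measured 28.1, 26.0, 30.4 and 33.1 CPM with BSO and 19.4, 13.5 and 19.6 CPM without it. Every liver with BSO was above every liver without it, and the log2 fold change was 0.74 (SE 0.18, adjusted p = 0.0504 by edgeR and 0.00540 by DESeq2). The other was Paox, at 14.5, 15.1, 11.8 and 13.9 CPM with BSO against 16.5 to 18.8 CPM without it, groups that did not overlap (log2 -0.36, SE 0.14, adjusted p = 0.245, edgeR). Odc1 measured 66.5, 79.0, 59.5 and 64.0 CPM with BSO, against 64.6 to 121 CPM without it, so that 2 of the 4 lay below the lowest liver on no-Trp alone (log2 -0.43, SE 0.22, adjusted p = 0.433, edgeR).

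Cse-/- livers on the no-Cys diet had more Odc1 mRNA than those on no-Trp + BSO, 88.5 to 143 against 59.5 to 79.0 CPM without overlap (log2 0.81, SE 0.21, adjusted p = 0.0426, edgeR). It was the 1 member called, where 2.75% of all genes were called. The call was lost without any of the mice av05, av06, av07, av09, av11 or av12, with adjusted p up to 0.138 and log2 values of 0.70 to 0.92 over all 8 such fits. Amd1 was at 15 to 25.3 against 26.0 to 33.1 CPM, ranges that did not overlap, and was not called by edgeR (log2 -0.51, SE 0.16, adjusted p = 0.0832), while DESeq2 gave an adjusted p of 0.0440.

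**Figure D3:**
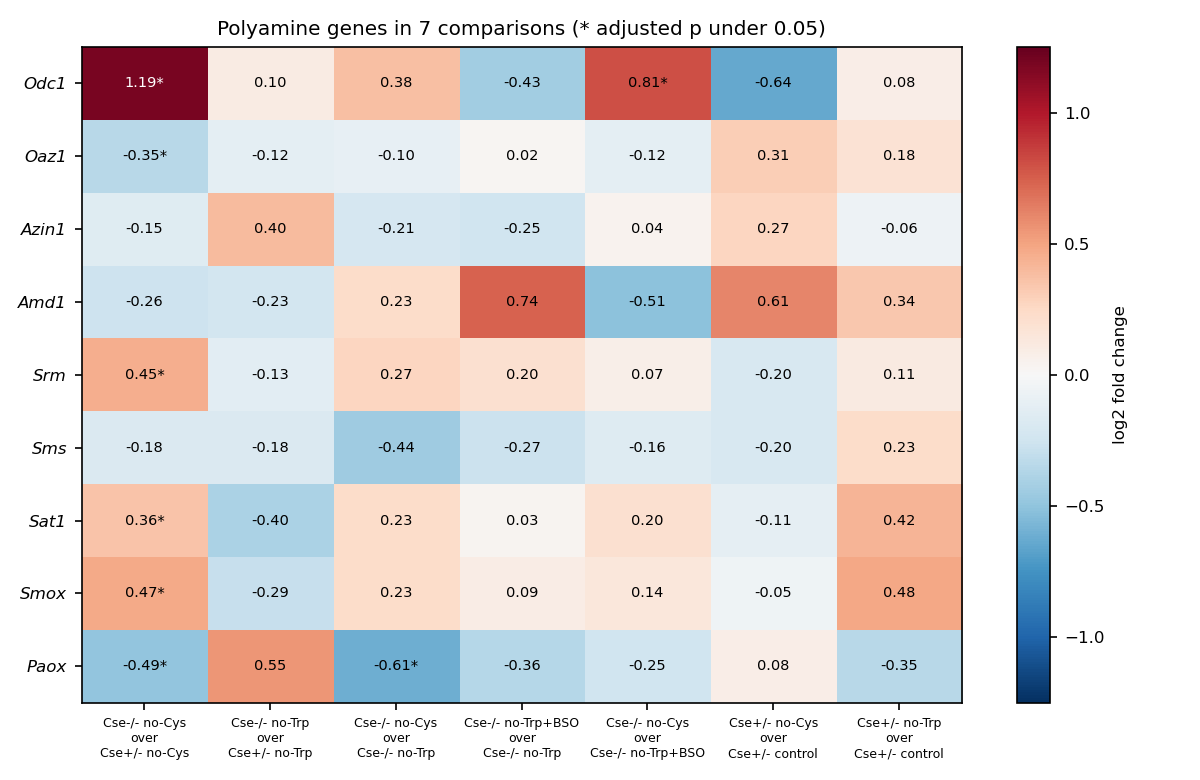
log2 fold change of each member (rows) in the 7 comparisons between groups (columns), with the value printed in each cell, colour from blue (lower in the first group) to red (higher), and an asterisk where edgeR's adjusted p was under 0.05. The 8 asterisks are 6 in the first column and 1 each for Paox and Odc1 in Cse-/- contrasts between diets.

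Cse+/- mice can still make cysteine, and their livers were compared with those on the control diet to see what each diet did alone. Only 2 control livers were available. On the no-Cys diet 0 members were called by edgeR and 0 by DESeq2, against 2.18% of all genes by edgeR, and 3 had an unadjusted p under 0.05, against 16.6% of all genes. Odc1 was at 33.4 to 72.8 against 63.7 and 96.6 CPM (log2 -0.64, SE 0.25, adjusted p = 0.201, edgeR). Oaz1 was at 288 to 321 against 236 and 245 CPM (log2 0.31, SE 0.12, adjusted p = 0.179, edgeR). Amd1 was at 21.2 to 27.4 against 14.7 and 17.9 CPM (log2 0.61, SE 0.21, adjusted p = 0.130, edgeR). The Oaz1 and Amd1 ranges did not overlap with the controls, and the Odc1 ranges did. These Cse+/- no-Cys livers are the same that the first comparison set against Cse-/- livers, in which the values of Odc1 and Oaz1 had the opposite signs.

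On the no-Trp diet 0 members were called in Cse+/- livers by edgeR or DESeq2, where edgeR called 0.0474% of all genes, and 2 had an unadjusted p under 0.05, against 9.29% of all genes. Sat1 was at 87.4 to 96.5 against 64.2 and 71.1 CPM (log2 0.42, SE 0.13, adjusted p = 0.282, edgeR) and Smox at 4.41 to 5.51 against 3.45 and 3.76 CPM (log2 0.48, SE 0.20, adjusted p = 0.461, edgeR). Both catabolic enzymes were above the control range in all 3 livers. Paox was at 12.0 to 12.4 against 15 and 15.9 CPM, below it in all 3 (log2 -0.35, SE 0.17, adjusted p = 0.538, edgeR).

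Around the 9 members, a list of 34 further genes of polyamine supply, use and transport was examined, of which 27 were tested and 7 had too few counts, Oaz3 and Aoc1 among them. Between genotypes on the no-Cys diet 8 were higher in Cse-/- and 3 lower, against the 11.6% and 12.2% of all genes given above. The 3 lower are a share near that background. The median of the 27 log2 fold changes was 0.06. In the handling of ornithine, ornithine aminotransferase Oat was higher (743 to 841 against 433 to 609 CPM; log2 0.56, SE 0.12). The 2 Cse+/- livers on the control diet had 632 and 817 CPM of Oat, also above the Cse+/- no-Cys range. Ornithine transcarbamylase Otc, which consumes ornithine in the urea cycle, was lower, at 151, 149, 145 and 270 against 375 to 398 CPM (log2 -1.11, SE 0.15, adjusted p = 5.39e-05, edgeR). Otc was lower in all 4 Cse-/- livers, and least so in mouse av08.

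In the supply of S-adenosylmethionine, the liver-type synthetase Mat1a was at 6576 to 8415 against 2969 to 5018 CPM (log2 1.01, SE 0.21, adjusted p = 0.00198, edgeR). The more widely expressed form Mat2a was lower, at 81.7 to 104 against 117 to 124 CPM (log2 -0.38, SE 0.09). The 2 Cse+/- livers on the control diet had 85.5 and 91.4 CPM of Mat2a, inside the Cse-/- range. Their Mat1a was at 4939 CPM, inside the Cse+/- no-Cys range, and at 6827 CPM, inside the Cse-/- range. The other 6 genes of this group, which include the salvage of methylthioadenosine left by Srm and Sms, were not called. In hypusination, the transfer of part of spermidine to a translation factor, the factor Eif5a (478 to 630 against 384 to 433 CPM; log2 0.43, SE 0.09, adjusted p = 0.00151, edgeR) and deoxyhypusine synthase Dhps (14 to 21.6 against 12.6 to 14.5 CPM; log2 0.46, SE 0.12) were higher, and Dohh, the next enzyme, was not called.

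Of 7 tested transport genes, 3 were higher and none lower, where 11.6% and 12.2% of all genes were, and 1 of the 3, Slc22a3, was called in none of the fits that left out a liver. The arginine and ornithine carrier Slc7a1 measured 2.72, 1.91, 7.70 and 1.48 CPM in Cse-/- against 0.389 to 0.721 CPM in Cse+/- livers (log2 2.84, SE 0.49, adjusted p = 0.000447, edgeR). Without the highest liver, mouse av07, its log2 value was 2.1 and still called. Its counts were low, at 20 to 124 in Cse-/- and 5 to 8 in Cse+/- livers. On the no-Trp diet Slc7a1 was at 1.81 to 1.86 against 0.654 to 1.14 CPM, without overlap and not called (adjusted p = 0.205, edgeR). The Slc7a1 interaction was not called either (adjusted p = 0.211, edgeR). On the no-Cys diet the heavy chain Slc3a2, shared by several amino acid carriers, was at 75.1, 100, 105 and 46.7 against 39.2 to 49.2 CPM (log2 0.91, SE 0.18, adjusted p = 0.00111, edgeR). Only mouse av08 fell inside the Cse+/- range. The organic cation transporter Slc22a3 was at 7.19 to 8.56 against 3.42 to 4.69 CPM (log2 0.83, SE 0.29, adjusted p = 0.0456, edgeR), with an adjusted p of 0.0629 to 0.111 when each of the 8 livers was left out. Among the paralogs of antizyme, its inhibitor and the S-adenosylmethionine decarboxylase, the inhibitor Azin2 was lower, at 1.54 to 2.07 against 2.97 to 4.12 CPM (log2 -1.04, SE 0.26, adjusted p = 0.00640, edgeR). Sat2, an acetyltransferase paralog and the only tested gene of its group, and Myc, a transcription factor known to act on Odc1, were not called.

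**Figure D4:**
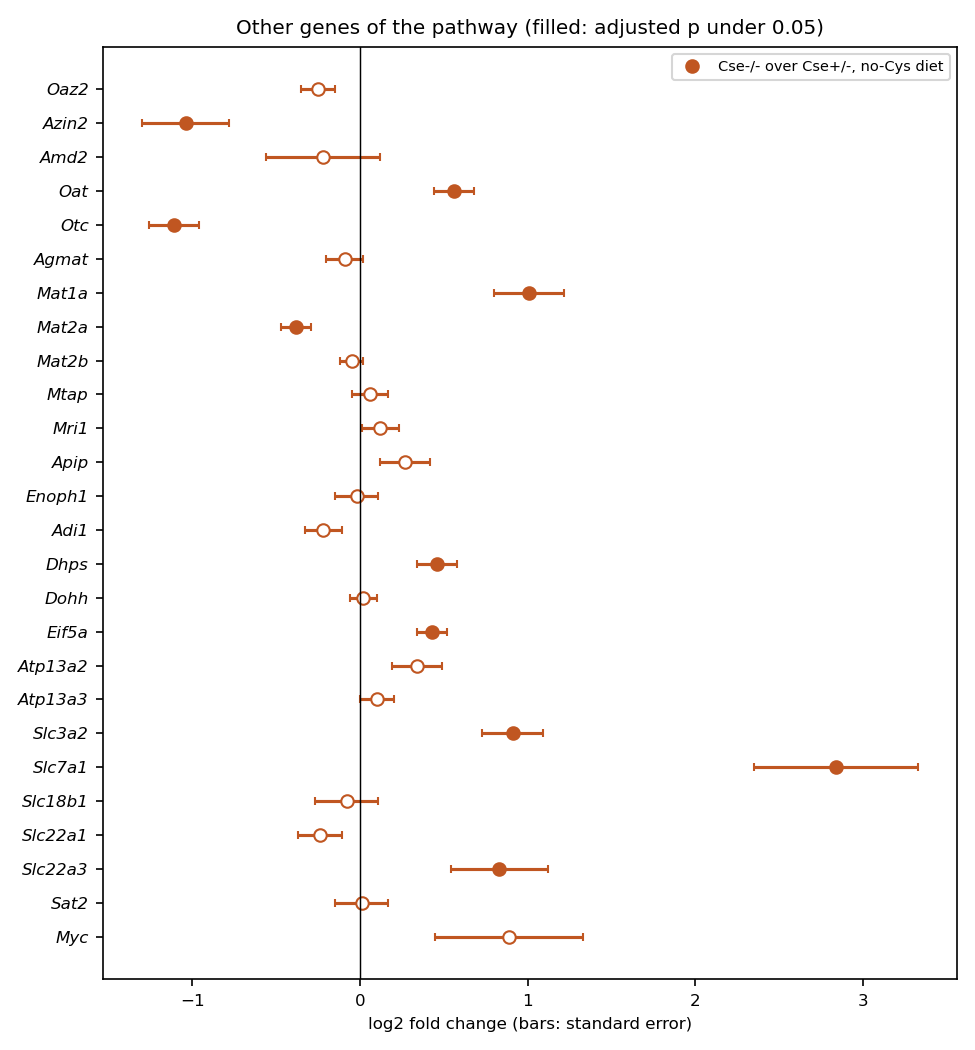
log2 fold change of other tested pathway genes (y axis, by role from top to bottom) in Cse-/- over Cse+/- livers on the no-Cys diet (x axis); bars are standard errors and filled points have an adjusted p under 0.05. Slc7a1 lies farthest to the right (2.84) and Otc farthest to the left (-1.11).

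Among Cse-/- livers, 6 of the 27 were higher on the no-Cys than on the no-Trp diet and 1 lower, where 5.05% of all genes were higher and 5.35% lower. Those higher included Slc3a2 (log2 0.99), Eif5a (0.34), Dhps (0.42), the methylthioribose-1-phosphate isomerase Mri1 (0.42) and the lysosomal polyamine exporter Atp13a2 (0.52). Of these, Slc3a2 kept its call in all 7 fits that left out a liver, Mri1 in 5, Eif5a in 2 and Dhps and Atp13a2 in 1, and all 5 lost it when only these 2 groups entered the fit (adjusted p = 0.057 for Slc3a2 and up to 0.146). Otc was again lower (log2 -0.93, SE 0.16, adjusted p = 0.00168, edgeR), and was called in all 7 such fits. On the no-Trp diet 0 of the 27 were called between genotypes by edgeR or by DESeq2, with 5 at an unadjusted p under 0.05, a share near the 18.4% of all genes. The interaction was called for 4 of them, against 4.36% of all genes, higher for Oat (0.75) and Slc3a2 (1.24) and lower for Azin2 (-1.55) and Otc (-1.0). With each of the 14 livers left out, Slc3a2 was called in all, Otc in 13, Oat in 9 and Azin2 in 6, and with only the 4 groups in the fit the calls of Otc (adjusted p = 0.0506) and Oat (0.0587) were lost.

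The genes whose log2 CPM followed Odc1 most closely over the 20 livers, among those with a mean of at least 1 CPM, were Gpat3 (Pearson r 0.87), Serbp1 (0.84) and Gm14928 (0.83). For Amd1 they were Max (0.81), Trim8 (0.80) and Vegfd (0.79). These are the highest of the correlations with all tested genes in livers of the same 6 groups and are given as a description.

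Several members have copies elsewhere in the genome, so their counts are less certain. Of stretches of 61 bases in their transcripts, 75.6% were shared with other annotated genes for Amd1, 27.0% for Paox, 20.6% for Odc1, 19.3% for Oaz1 and 17.2% for Sms, and at most 4.62% for the remaining 4. The counts of such copies differed between members. Amd2 held 2.84% of the counts of Amd1, the most counted copy of Odc1 3.48% of those of Odc1 and Oaz1-ps 1.23% of those of Oaz1, while Sms-ps held 40.4% of those of Sms and Gm19680 23.5% of those of Paox. Paox shares 142 exonic bases with Echs1 on the opposite strand, and whether the counting used strand is not stated in the sources at hand. Echs1 held 118120 counts over the 20 livers, against 5794 for Paox, and its part in the Paox value was not tested. Echs1 differed by -0.12 (SE 0.08, adjusted p = 0.287, edgeR) and Gm19680 by -0.22 (SE 0.18, adjusted p = 0.393, edgeR) on the log2 scale between genotypes on the no-Cys diet, where Paox differed by -0.49. Map3k2, which also shares sequence with Paox and held 10155 counts over the 20 livers against 5794 for Paox, was called lower there (-0.45, SE 0.14, adjusted p = 0.0253, edgeR). Its part in the Paox value was not tested. For the Paox interaction of -1.04 the corresponding values were -0.19 (SE 0.12) for Echs1, -0.39 (SE 0.26) for Gm19680 and -0.46 (SE 0.21, adjusted p = 0.239, edgeR) for Map3k2.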

How the data were processed

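Poly(A) RNA of mouse liver was sequenced in paired-end libraries. The deposited table holds counts of reads on Ensembl genes, which the authors made without normalization, using HISAT2 2.1.0, HTSeq 0.11.0 and GRCm38 per the labels' processing notes. The annotation's release is not given in the sources. Columns were placed in groups by the study's list of mice, and 1 column, with no group there, was not used. Of 46078 genes, 45229 received a symbol from an annotation of GRCm38. Depth was 11785740 to 57986121 counts (median 15252745), and its limit is counting error in the lowest members.

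The counts, with TMM factors, entered edgeR 4.0.16 (R 4.3.3), after filterByExpr with a minimum count of 10 and a minimum total of 15 had left 14759 genes. All 20 livers were fitted together by quasi-likelihood, 1 mean a group, with a common dispersion of 0.027. Two-sided p-values were adjusted over all genes by Benjamini-Hochberg, with a threshold of 0.05. The SE was taken as the size of the log2 fold change over the root of F. CPM use TMM-scaled library sizes, and log2 CPM a prior count of 2. Figures used matplotlib 3.10.9 in Python 3.11.15.

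On counts simulated for Cse-/- against Cse+/- livers on the no-Cys diet (14479 genes, 200 changed), the test recovered 47.8% of 1.5-fold, 82.1% of 2-fold and 100% of 4-fold changes with 4 false calls. For the no-Cys against the control diet in Cse+/- livers it recovered 34.3%, 68.7% and 98.5%, with 8 false calls. For no-Trp + BSO against no-Trp alone it recovered 32.8%, 83.6% and 100%, with 8 false calls. The data held more changes, with 1717 genes called higher and 1798 lower between genotypes on the no-Cys diet. These rates need not hold there. Alternatives were DESeq2 1.42.0, RLE factors, no filter, only the groups compared, and each liver left out. All members were named, and other pathway genes where called between genotypes on the no-Cys diet or between the no-Cys and no-Trp diets in Cse-/- livers. The members and lists were chosen with earlier results of these data known. The results of 2 listed genes are not reported here.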

Additional observations from a re-analysis of the deposited data

Results flagged for a closer look

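Among 27 groups of 4 livers (9 members in 3 groups), 1 held a liver far from the others: Oaz1 in the no-Cys Cse+/- livers, where mouse av02 was at 321 CPM and the other 3 at 288 to 293 CPM. Its gap to the nearest liver was 0.867 of the range, above Dixon's 95% critical value, which chance exceeds in about 1 group of 20. Without this mouse the genotype difference of Oaz1 on the no-Cys diet was -0.32 on the log2 scale (adjusted p = 0.0399, edgeR), against -0.35 with it.

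The genotype effect differed between the no-Cys and no-Trp diets for Sat1, by 0.77, and for Paox, by -1.04 on the log2 scale, in edgeR's interaction test. On the no-Cys diet Sat1 was higher and Paox lower in Cse-/- livers, and on the no-Trp diet, where neither difference was called, the values had the opposite signs.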

How the results depend on the processing

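With each liver left out in turn, the members called numbered 3 to 6 between genotypes on the no-Cys diet (6 with all livers; 3 without the Cse-/- mouse av07), 0 to 1 between genotypes on the no-Trp diet (0; 1 without the Cse-/- mouse av14), 1 in every fit between the no-Cys and no-Trp diets in Cse-/- livers (1), 0 to 1 for BSO against no-Trp alone (0; 1 without the BSO mouse av10), 0 to 2 for the no-Cys diet against no-Trp + BSO (1; 0 without any of av05, av06, av07, av09, av11 and av12, and 2 without av08), 2 to 4 for the interaction (2; 4 without av03 or av08) and 0 in both Cse+/- comparisons with the control diet (0). In those, leaving out a control left 1, assumed to vary like the other groups. DESeq2 called 2 members between genotypes on the no-Trp diet, 1 for BSO against no-Trp alone, 2 for the no-Cys diet against no-Trp + BSO and 4 for the interaction. Without the filter these numbers were 1, 1, 2 and 3. Between genotypes on the no-Cys diet the 6 calls became 5 with DESeq2, 5 without the filter and 4 with only the groups compared. With only the groups compared in the fit, 0 were called between the no-Cys and no-Trp diets in Cse-/- livers. RLE factors gave the numbers of the reported fit in all 8 comparisons.

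Of 837 values of the 72 log2 fold changes and interactions of members under the alternatives, none that was called changed sign, 21 lost a call and 18 gained one. A sign change occurred in 32, with neither value called. The cause was not tested. No paired analysis was possible because the columns carry mouse numbers and no replicate number shared between groups. Depth limits Sms and Smox most, with 35 and 40 counts in their lowest livers, and groups of 2 to 4 mice limit all comparisons.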

Other observations

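In Cse+/- livers, 2 of the 27 tested genes of the pathway list were called between the no-Cys and the control diet, where 2.18% of all genes were, and are named here after their values were seen. Myc, a transcription factor known to act on Odc1, was at 3.11 to 4.36 CPM on the no-Cys diet and at 16.4 and 21.2 CPM in the 2 controls (log2 -2.25, SE 0.49, adjusted p = 0.0185, edgeR). Mat2a, the more widely expressed S-adenosylmethionine synthetase, was at 117 to 124 against 85.5 and 91.4 CPM (log2 0.45, SE 0.11, adjusted p = 0.0287, edgeR). With each of the 6 livers left out, Myc was called in 4 fits (adjusted p = 0.0287 to 0.244) and Mat2a in 3 (0.0338 to 0.403). With only these 2 groups in the fit Mat2a was not called (adjusted p = 0.0704, edgeR). In Cse-/- livers on the no-Cys diet, where the mean of Odc1 was highest, Myc was at 5.09 to 9.56 CPM, also below both controls. A link between Myc and Odc1 was not tested.

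Against no-Trp + BSO, 3 of the 27 were called in Cse-/- livers on the no-Cys diet, where 2.75% of all genes were. These livers had more Slc3a2 (46.7 to 105 against 42.1 to 49.8 CPM; log2 0.83, SE 0.18, adjusted p = 0.0200, edgeR) and Eif5a (478 to 630 against 395 to 455 CPM; log2 0.34, SE 0.09, adjusted p = 0.0412, edgeR) and less Otc (145 to 270 against 281 to 353 CPM; log2 -0.79, SE 0.15, adjusted p = 0.0129, edgeR). With each of the 8 livers left out, Slc3a2 was called in 3 fits, Eif5a in 1 and Otc in 5, and with only these 2 groups in the fit Eif5a was not called (adjusted p = 0.0697).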
